A study of Mus musculus with 4 samples.

Results

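In cap analysis of gene expression (CAGE), short tags are read from the capped 5′ ends of RNAs, and neighbouring tag starts are joined into clusters that mark where transcription began. The clusters described here carried no gene name in the deposited table and averaged at least 5 CPM (tag counts scaled to a common library size, the deposited unit) over the 4 libraries. They numbered 919 of 67319 distinct clusters, and of 20326 clusters without a gene name. They were chosen by their mean CPM, so levels are given as a description and no test is made of them.

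All 4 libraries came from lesional facial skin of mice of 1 genotype, Nectin-cre(+);Ikk2FL/FL;Postn-/-, on the C57BL/6 strain at 28 days of age. The mice lack Postn, the gene of the matrix protein periostin, and carry a Cre-driven deletion of Ikk2, the kinase gene also known as Ikbkb, that gives the facial atopic dermatitis model called FADS. The labels give Nectin as the Cre driver and do not name the cells in which it acts. There was no control group. Libraries 1 to 4 carry the codes Fads_Ix17.1L, Fads_Ix17.1R, Fads_Ix17.2L and Fads_Ix17.2R, which the labels do not explain. Whether libraries that share a number or a letter share an animal is not stated, so a p-value below speaks only of differences among these 4 libraries, technical ones included. In whole skin, fewer cells of a type and less RNA per cell cannot be told apart.

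A tag start without a gene name can lie in several kinds of place. Promoters often fire in both directions and give short antisense RNAs, enhancers give short capped RNAs, and genes missing from an annotation have starts of their own. Tags can also begin inside exons, where RNAs are cut and capped again or where a reverse transcript ends early, and a tag from a spliced RNA with a short first exon spans the first intron.

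The sequences at exon boundaries are shown first, because 371 of the 919 clusters (40.4%) had their 5′ edge within 10 bases before or 5 bases into an internal exon. For Sun1 and Vrk1 the RefSeq promoter table (GRCm38.p6) holds the genomic letters across the boundary, with the cluster in capitals. Each run has 15 bases of intron followed by 15 bases of exon 2:
Sun1 (chr5:139215143-139215172, + strand): ctgtctcttctGCAGCAtggtctgagacgg
Vrk1 (chr12:106036525-106036554, + strand): tgttttgtgttacAGTGAagatgccccgtg
The Vrk1 cluster opened on the AG that ends the intron, 2 bases before exon 2, and the Sun1 cluster opened 4 bases before exon 2. In both, the first base of that exon is itself a RefSeq start on the same strand. Few members are of this kind, as only 12 of the 919 lay inside a RefSeq promoter window on its strand. Exon 1 of Sun1 ends in CAG, the same 3 letters that end its intron, whereas exon 1 of Vrk1 ends in TGG and its intron in CAG.

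The spliced RNA at such a boundary reads as follows for the 3 strongest clusters whose consensus coding transcript has a first exon of at most 100 bases and at least 15 coding bases on each side of the junction, from the GENCODE M21 transcripts, with exon 1 in lower case and exon 2 in capitals:
Hbp1 (chromosome 12, - strand, cluster chr12:31944004-31944015): atggcgacgggtttgTCGGAGCACCATAAC
Vps41 (chromosome 13, + strand, cluster chr13:18723183-18723189): gaagcagaggagcagGAAACCGAGTCTCTT
Gcn1l1 (chromosome 5, + strand, cluster chr5:115571403-115571409): gcggcggacacgcagGTTTCCGAGACACTG
The first exons of these transcripts were 28, 47 and 53 bases long.

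A second set of sequences belongs to clusters inside the promoter window of a RefSeq gene, 250 bases before to 50 after its start. On the strand of the window lay 12 members, and 25 lay on the other strand. The 60 bases before the cluster are in lower case and the cluster is in capitals, read on the strand of the cluster:
Gm41515 (chr16:88981825-88981894, - strand): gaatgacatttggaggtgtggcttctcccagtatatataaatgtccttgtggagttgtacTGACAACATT
Gm36926 (chr11:63119258-63119346, - strand): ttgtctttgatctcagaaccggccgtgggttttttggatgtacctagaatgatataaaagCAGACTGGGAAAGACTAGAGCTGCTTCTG
Mir1a-1hg (chr2:180385541-180385612, + strand): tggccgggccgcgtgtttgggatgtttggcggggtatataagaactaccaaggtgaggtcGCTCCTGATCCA
Tbc1d22a, antisense side (chr15:86214280-86214471, - strand): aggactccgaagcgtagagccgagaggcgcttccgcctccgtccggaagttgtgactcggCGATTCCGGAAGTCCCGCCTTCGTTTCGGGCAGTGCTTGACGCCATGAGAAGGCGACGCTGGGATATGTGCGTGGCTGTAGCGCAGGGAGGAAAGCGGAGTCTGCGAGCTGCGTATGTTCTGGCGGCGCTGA
The TATA box letters TATAAA began 25 bases before the Gm41515 cluster and 8 bases before the Gm36926 cluster. These letters occur on the window's strand in 8.32% of the 32817 promoter windows, and on either strand in 13.6%. This exact string was not found in the runs printed for Mir1a-1hg and Tbc1d22a. The Mir1a-1hg run holds the similar letters TATATAAG, and variants of the string were not searched for.

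The 4 libraries held 16492915 to 17691558 tags in distinct clusters, and 1 tag was worth 0.0531 to 0.0567 CPM. Libraries 1 to 4 placed 9.95%, 8.72%, 9.11% and 8.68% of these tags in the 919 clusters, a mean of 9.11% ± 0.59 (SD, n = 4). The summed level of 8 epidermal keratinocyte markers was 8403 to 12686 CPM, with all 8 detected in every library, and that of 5 macrophage markers 85.6, 78.7, 101 and 88.6 CPM. The libraries differed most in gland markers, whose 7 measured genes summed to 10.1, 46128, 0.227 and 10455 CPM in libraries 1 to 4. The 6 hair follicle markers summed to 9435, 8772, 3964 and 5205 CPM, and the 6 skeletal muscle markers to 2630, 1932, 3191 and 4772 CPM.

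Members ranged from 5 to 8688 CPM with a median of 11.5 CPM, and the 10 highest held 54.6% of their summed level. Between 5 and 10 CPM lay 401 members, at least 100 CPM was reached by 69, and at least 1000 CPM by 15. The nearest on the inner side of the 5 CPM limit was a cluster in the 5′ UTR of Arhgdib at 5 CPM (chr6:136933751-136933775), followed by one at 5.004 CPM (chr16:13447909-13447996). The nearest on the outer side lay in introns of Tpcn2 (chr7:145197009-145197106) and Phf21a (chr2:92214047-92214049). Each member had at least 360 tags over the 4 libraries.

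The strongest cluster lay outside genes at chr3:5860580-5860719 (+ strand), 109733 bp from the nearest named cluster, with 10113, 8159, 8434 and 8045 CPM in libraries 1 to 4. The second, at chr11:109011908-109012080 (- strand), also outside genes, had 9312, 7924, 8745 and 7935 CPM. Library 1 was highest at both. The other 3 libraries lay close together at the first, while at the second library 3 lay between library 1 and the close values of libraries 2 and 4. Around these positions further members followed on the same strand. At chr11:109011675-109012080 there were 10 members, which summed to 12490 ± 969 CPM, and at chr3:5860359-5860790 there were 8, which summed to 11371 ± 1240 CPM (SD, n = 4). A cluster only 2 bases wide at chr2:22745126-22745127 (- strand), 29214 bp from the nearest named cluster, a start of Apbb1ip, had 6154, 5472, 4975 and 5479 CPM.

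Several of the strongest members lay inside genes. A cluster in an intron of Cmss1 (chr16:57391521-57391676, - strand) had 9235, 7527, 7399 and 7623 CPM. One in the 3′ UTR of Lars2, the mitochondrial leucyl-tRNA synthetase gene (chr9:123461920-123462119, + strand), had 4873, 3988, 4065 and 3871 CPM. Both were highest in library 1, with the other libraries close together. A cluster antisense to Jarid2, a gene of a Polycomb-associated protein (chr13:44869629-44869684), had 2749, 2362, 3279 and 2678 CPM, highest in library 3. Clusters in introns of Camk1d (chr2:5379304-5379378, 2671 ± 325 CPM) and of the Mediator kinase gene Cdk8 (chr5:146260978-146261152, 2313 ± 309 CPM) were again highest in library 1 (SD, n = 4). Antisense to Il1rapl1, a cluster on chromosome X (chrX:87238356-87238382) had 1558, 1501, 1869 and 1607 CPM.

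The nearest named cluster was far weaker at each of the 10 strongest members, by 5.59 to 15.02 on the log2 scale. The named Cdk8 cluster closest to the intronic one averaged 2.28 CPM, and the named cluster closest to the strongest member 1.13 CPM. A member in an intron of Il31ra (chr13:112578233-112578353), the gene of the receptor subunit for the itch cytokine IL-31, had 1408, 1177, 1259 and 1187 CPM. This one was picked out after its values were seen, and its nearest named cluster lay 2368 bp away. The labels and headers do not say how tags matching several places in the genome were assigned, so the position of a member in repeated sequence is uncertain. Whether the tags of the strongest members came from RNAs of the genes they lie in, or from ribosomal RNA, was not tested.

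**Figure D1:**
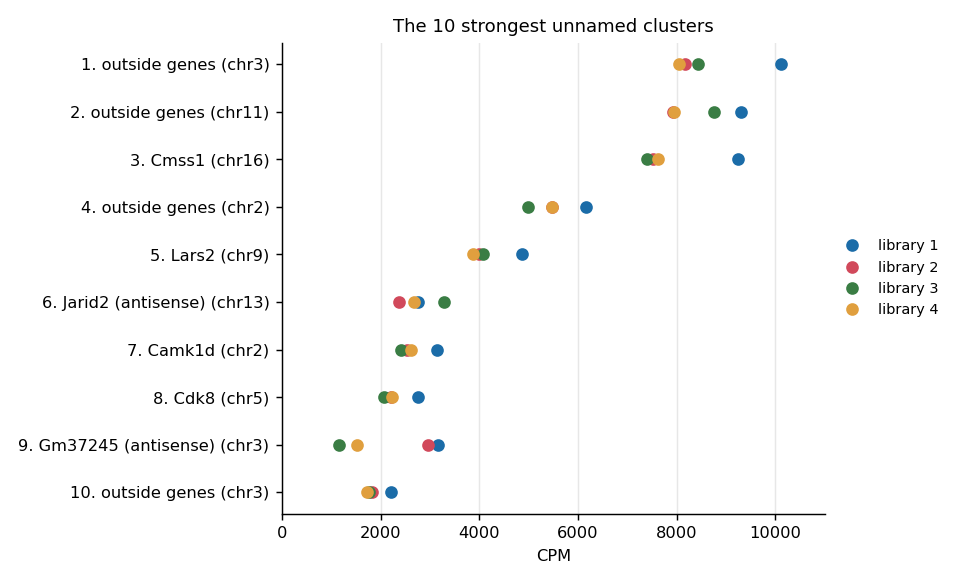
CPM of the 10 strongest clusters without a gene name, 1 row per cluster with the gene it overlaps and its chromosome, and 1 point per library. Libraries lie close together at most of them, with library 1 highest at 9 of the 10 (library 3 at the cluster antisense to Jarid2), and are far apart at the cluster antisense to Gm37245, upstream of Tchh (1149 to 3162 CPM).

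The kinds of place differed in number and in level. Beside the 371 clusters at exon boundaries, 198 lay outside genes, 140 in introns on the gene's strand, 69 antisense to coding genes and 58 inside coding exons. A further 43 lay in noncoding genes on their strand, 22 in other exons of coding genes and 18 antisense to noncoding genes. Clusters outside genes held 46.4% of the members' summed level, at 39660 ± 2732 CPM, and intronic ones 21.5%, at 18351 ± 1759 CPM (SD, n = 4). Exon boundaries, with the most clusters, held 12%, at 10247 ± 970 CPM. The 10 strongest loci, formed by joining members of the same strand within 500 bp, held 63.8% of the summed level of all 824 loci.

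Clusters at exon boundaries lay almost always at exon 2, and their edges were sharply placed. Exon 2 was the exon for 354 of 371, in 365 host genes in all. The 5′ edge lay 2 bases before the exon for 146 clusters and 3 bases before it for 102, and 340 (91.6%) lay 1 to 5 bases before it. Only 18 opened inside the exon. These clusters were narrow, with a median width of 6 bases, and 72.8% were at most 10 bases wide. Among named clusters of at least 5 CPM 3.61% had such an edge, and among unnamed clusters of 1 to 5 CPM 21.6%.

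First exons were short where such a cluster occurred. The shortest annotated first exon had a median of 47 bases (quartiles 30 and 68) for the clusters at exon 2. The share of second exons that held a member was counted over 22731 boundaries of coding genes of at least 5 CPM in all, with a median first exon of 148 bases where no member lay, leaving out boundaries within 500 bp of an annotated start. A member lay at 7.14% of the 2128 boundaries after a first exon of 26 to 50 bases and at 5.43% of the 792 after a first exon of at most 25 bases. The share was 2.82% of 2550 for 51 to 75 bases, 1.21% of 2388 for 76 to 100 bases, 0.491% of 6313 for 101 to 200 bases and 0.199% of 8560 for longer ones. For genes of at least 50 CPM it was 8.91% of 718 at 26 to 50 bases and 0.234% of 2997 above 200 bases. First exons ended in AG at 55.8% of boundaries with a member and at 55.7% of those without one.

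**Figure D2:**
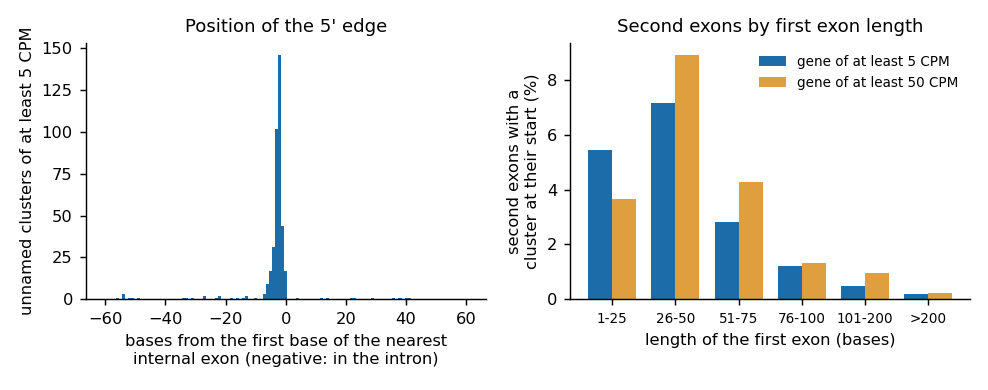
Left, number of clusters without a gene name by the distance of their 5′ edge from the first base of the nearest internal exon on their strand, in bases. Right, share of second exons with such a cluster at their start, in percent, by length of the first exon, for genes of at least 5 and at least 50 CPM. Edges pile up 2 bases before the exon (146 clusters), and the share is 7.14% after first exons of 26 to 50 bases and 0.199% after first exons of over 200 bases.

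At the strongest of these boundaries the level moved with the gene's own named start from library to library. The highest was at exon 2 of Sprr1b (chr3:92437584-92437588, - strand), a gene of the cornified envelope of the epidermis, with 976, 1033, 1601 and 915 CPM. In tags these were 17738, 19445, 28233 and 16411, against 19787, 21767, 31679 and 18407 at the named Sprr1b start. Library 3 was highest at both places, and the cluster held 89.6%, 89.3%, 89.1% and 89.2% of the level of the named start. The SD of the log2 ratio over the 4 libraries was 0.004, where the counting error of a pair of independent counts of this size is 0.014 and the SD of the cluster's own log2 CPM was 0.37.

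Exon 2 of 2310046K23Rik (chr3:92533139-92533145) had 496, 486, 783 and 482 CPM, and of Cdc42, a small GTPase gene (chr4:137336122-137336134), 302, 286, 350 and 322 CPM. The first held 96.8% to 97.3% of its named start and the second 97.9%, 100%, 101% and 99.9%. At Kprp, the gene of the keratinocyte proline-rich protein, the tags were 3036, 2651, 3351 and 2993, against 3129, 2706, 3457 and 3082 at the named start. The ratio there had an SD of 0.007 on the log2 scale, against a counting error of 0.037. At Anxa2, an annexin gene, the cluster held 72.2% to 72.8% of the named start, with an SD of 0.006 against a counting error of 0.028.

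The ratio was not so even at every boundary. At Msmo1, a gene of cholesterol synthesis, the share was 59.7%, 64.4%, 72.4% and 69.6%, and the SD of the log2 ratio, 0.124, was above its counting error of 0.029. Library 1 was lowest and library 3 highest in this share, and also in the cluster and at the named start. The SD of the cluster's own log2 CPM was larger, at 0.47, so the cluster still moved with its start. At Hbp1 the cluster was above the named start in all 4 libraries, at 159%, 188%, 180% and 197% of it, with an SD of 0.132 against a counting error of 0.066. The genes after Cdc42 in this account were picked out after their values were seen.

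Over the 368 boundary clusters whose gene had a named start, the cluster held a median of 39.5% of the strongest named start (quartiles 18.7% and 70.1%). It was above that start for 40 of them and within 90% to 110% of it for 25. The SD of the log2 ratio over the libraries had a median of 0.093, against a median of 0.16 for the clusters' own log2 CPM, and was the smaller for 286 of 368. It was below the counting error for 236 of 368 (64.1%), a share near the 60.8% that independent counts give, and nothing is read from this count. Whether the same sequenced tags were counted at both places was not tested, and no label or header says how tags that cross an intron were counted. Without the boundary clusters the members held 8.02% of the tags, their median width was 100 bases in place of 43, and their median distance to a named cluster was 11744 bp in place of 6028 bp.

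**Figure D3:**
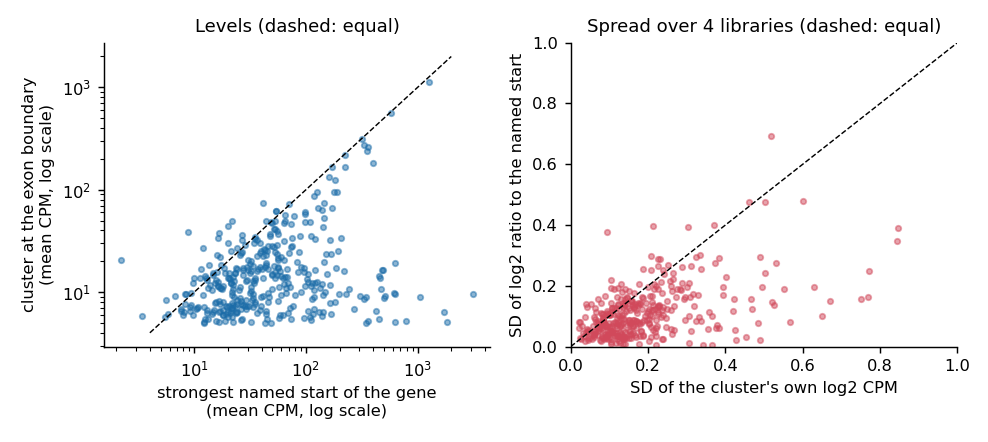
Left, mean CPM of each cluster at an exon boundary against the strongest named start of its gene (367 clusters, both axes log scale, dashed line equal levels). Right, SD over the 4 libraries of the log2 ratio of the cluster to that start against the SD of the cluster's own log2 CPM (3 points lie beyond the axes). Most clusters lie below the line (40 of 368 were above their start), and the ratio had the smaller SD for 286 of 368 clusters.

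Chromosome 3 from 92 to 94 Mb, which holds genes of the epidermal differentiation complex, carried 40 members. Of these 22 lay in Tchh, the gene of trichohyalin, a structural protein of the hair follicle's root sheath. Exon boundaries held 9 of the 40 (1 of them in Tchh), among them those of Sprr1b, Sprr2d, Lor, Rptn and Kprp. The strongest there lay upstream of Tchh (chr3:93440751-93440784, + strand), 1520 bp from the named Tchh start, and is antisense to the lncRNA Gm37245. It had 3162, 2955, 1149 and 1513 CPM, against 67.9, 56.4, 25.8 and 30.5 CPM at the named Tchh start. The unnamed cluster was thus 46.6, 52.4, 44.6 and 49.5 times the named start, and both were higher in libraries 1 and 2 than in libraries 3 and 4.

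Inside Tchh, 21 members lay within the coding exon and 1 at the boundary before it, at 5.46 to 69.3 CPM each. They summed to 665, 565, 204 and 239 CPM. At each of the 22, libraries 1 and 2 were above libraries 3 and 4, as at the named Tchh start. This order was seen in 193 of all members (21%), these 22 included, and in 12.1% of named clusters of at least 5 CPM. The 22 lie in 1 gene and are not independent observations. The strongest (chr3:93443954-93444155) had 120, 92.2, 31.8 and 33.3 CPM. Members inside coding exons of other genes were mostly single. The linker histone gene Hist1h1d held the strongest (chr13:23555029-23555163), with 675, 608, 666 and 757 CPM, and the proteasome gene Psmc2 the next (chr5:21786679-21786839), with 141, 132, 129 and 133 CPM. Beside Tchh, 4 genes held 2 each. Their sums averaged 43.4 CPM in Rin2, 18 CPM in Krt5, a keratin gene of basal keratinocytes, 17.6 CPM in Dsp, the gene of the desmosome protein desmoplakin, and 11.5 CPM in Sprr1a.

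In other exons of coding genes the strongest after Lars2 lay in the annotated 5′ UTR of the plakin gene Eppk1 (chr15:76119137-76119197), with 138, 147, 189 and 169 CPM (161 ± 22.8; SD, n = 4). In noncoding genes the strongest member was in a pseudogene at chr10:96077766-96077894, with 449, 364, 367 and 396 CPM. The next was in a lncRNA 26742 bp from a start of Myl12b (chr17:70963658-70963753), with 99.9, 93.7, 100 and 95.5 CPM. Behind it came one in the lncRNA Gm26917 (chr17:39844693-39844756), with 76.5, 91.5, 131 and 86.8 CPM. In and next to Gm26917 and its neighbour Gm42418, a stretch picked out after its values were seen, lay 16 members, all on the + strand, which summed to 487 ± 44.7 CPM (SD, n = 4). The class lncRNA is the gene type in GENCODE M21, and whether the tags of this stretch came from ribosomal RNA was not tested.

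The gap from a member to the nearest named cluster had a median of 6028 bp (quartiles 1931 and 21106 bp), and 76 members were over 100 kb away. Named clusters of at least 5 CPM had a median gap of 19446 bp to the nearest cluster of another gene, and unnamed clusters under 5 CPM one of 7502 bp to the nearest named cluster. Within 1 kb of a named cluster lay 126 members (13.7%). A GENCODE M21 start on the same strand within 500 bp was found for only 9 members, and for 92.2% of named clusters. By the RefSeq windows given above, 12 members lay within 250 bases before to 50 after a start on their strand.

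**Figure D4:**
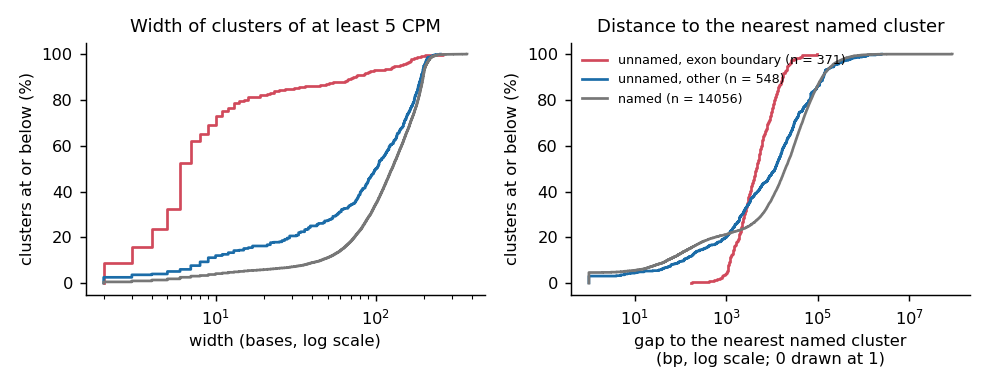
Cumulative share, in percent, of clusters of at least 5 CPM by width in bases (left) and by gap to the nearest named cluster in bp (right; for named clusters, to one of another gene), both on log scales. Lines stand for the 371 unnamed clusters at exon boundaries, the other 548 unnamed clusters and 14056 named clusters. Median widths are 6 bases at exon boundaries, 100 bases for the other unnamed clusters and 126 bases for named ones, and the median gap of the other unnamed clusters is 11744 bp.

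Among the 126 near neighbours the largest class, 55, lay on the opposite strand and pointed away from the named start, the arrangement known from bidirectional promoters. A further 30 lay downstream on the same strand, 22 on the opposite strand pointing towards the named start and 19 upstream on the same strand. Unnamed clusters of 1 to 5 CPM within 1 kb pointed away more often, at 63.5% against 43.7% of the members; this difference was not tested. The 55 had a median width of 121 bases, and 22 of them were weaker than the named neighbour, whose level had a median of 5.07 CPM. The median of their log2 ratio to the neighbour was 0.68. Members had to average at least 5 CPM and named neighbours had no lower limit, so this ratio is only a description.

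The strongest of the 55 lay on chromosome 2 opposite Gm10800 (chr2:98666549-98666725), with 35.5, 49.4, 101 and 86.9 CPM. Next was the antisense side of Tbc1d22a, a Rab GTPase-activating gene, whose sequence is given above. It had 39.5, 34.1, 30.1 and 32.2 CPM, against 28.9, 28, 29.9 and 30.5 CPM at the named start, so the levels of both directions were close. Opposite Duoxa1, the gene of a dual oxidase maturation factor (chr2:122313774-122313856), the cluster had 17.5, 18.4, 32.9 and 19.3 CPM against 5.61, 6.64, 8.73 and 5.8 CPM. Both sides of Duoxa1 were highest in library 3.

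On the same strand, a member 310 bp upstream of a named Cpeb4 cluster (chr11:31870850-31871044) had 60.2, 59.8, 61.9 and 51.8 CPM. Inside Malat1, an abundant nuclear lncRNA, a member 221 bp downstream of a weak named cluster (chr19:5801260-5801468) had 99.6, 99.3, 85.3 and 80.2 CPM. Antisense to noncoding genes, the strongest after the cluster upstream of Tchh were on chromosome 19 (chr19:8252279-8252288, 206, 173, 241 and 211 CPM) and chromosome 14 (chr14:104715848-104715977, 144, 133, 171 and 133 CPM).

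Width, strand and chromosome did not enter the choice of members. Widths had a median of 43 bases (quartiles 7 and 130), against 126 bases for named clusters of at least 5 CPM (quartiles 83 and 175). On the + strand lay 508 members (55.3%), and 49.7% of those named clusters. Chromosomes 11, 3 and 2 held the most, with 86, 80 and 71 members. Chromosome 3 held 8.71% of the members and 5.55% of all distinct clusters, and 22 of its 80 members lay in Tchh. Chromosome Y held 2 members.

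The spread over libraries was wider for members than for named clusters, in groups not matched on level and without a test. The ratio of SD to mean (CV) over the 4 libraries had a median of 13.6%, against 9.44% for named clusters of at least 5 CPM. The highest library was under 2 times the lowest for 84.2% of members and for 94.9% of those named clusters. The steadiest was outside genes on chromosome 17, 617 bp upstream of a named Efna5 cluster (chr17:62882847-62883038), with 21, 21.1, 20.6 and 20.7 CPM. The next 4 were at exon boundaries of Gigyf2 (11.1 to 11.4 CPM), Dennd2c (13.6 to 14 CPM), Ccar1 (14.4 to 15 CPM) and Gipc1 (51.4 to 53.7 CPM).

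The spread of each cluster was tested against that of clusters of its level, with limma on log2(CPM + 1). Of 25530 clusters tested 0.552% were called (Benjamini-Hochberg adjusted p under 0.05), of 14056 named clusters of at least 5 CPM 0.832%, and of 21876 named clusters of at least 1 CPM 0.544%. Of the 919 members 20 were called, or 2.18%, and 13 of these lay outside genes. The mean CPM that chose the members comes from the same 4 values as the spread: 15 of the 20 had a library under 5 CPM, and 12 had 2 such libraries, so they entered through the libraries where they were high. The shares called are therefore given as a description. The call depended on the settings of the test: 1 of the 20 was called when the prior was not robust or when clusters of at least 5 CPM were tested, 2 without library 4 and 12 without library 2. With no filter on level 129 members were called.

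Among the 20, libraries 2 and 4 were both above libraries 1 and 3 at 9 clusters, and libraries 1 and 2 both above libraries 3 and 4 at 10. The first order sets the codes ending in R above those ending in L, and the second the codes with the lower number above those with the higher, so cell content and whatever the codes stand for cannot be told apart here. Of the 10 marker lists, the gland sums had the first order and the hair follicle sums the second. Within the gland list, Bpifa2 (4.18, 16004, 0.113 and 4.46 CPM) and Smr3a (0.825, 3484, 0 and 0.557 CPM) were high in library 2 alone. Smr3a was lower in library 4 than in library 1. The other measured gland markers, such as Mucl2 (1.93, 9099, 0 and 3369 CPM), were high in libraries 2 and 4. In 7 lists the sums of libraries 1 and 2 were both below those of libraries 3 and 4, the reverse of the second order. These included fibroblast markers (3615, 3212, 6103 and 5409 CPM), sebaceous markers (626, 718, 1314 and 928 CPM), T cell markers (6.05, 5.47, 11.1 and 11.5 CPM) and keratinocyte markers (9548, 8403, 12686 and 11367 CPM). Single markers did not all follow their sums. Krt5, Krt14, Krt6b and Krt17 had library 1 above library 4, while Krt1, Krt10, Lor and Flg had the order of the keratinocyte sum. The sebaceous marker Elovl3 and the T cell marker Cd3d had library 2 above library 4. The part of the listed cell types in the result was not tested. A count of 0 tags allows a level of up to 0.165 CPM in library 1 and 0.17 CPM in library 3, counting error alone considered.

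The cluster with the largest F statistic lay outside genes on chromosome 19 (chr19:9744074-9744193), 103360 bp from a start of the secretoglobin gene Scgb2a2. It had 2.15, 457, 1.87 and 179 CPM (limma adjusted p = 0.00147), and the named Scgb2a2 cluster had 0.110, 149, 0 and 67.1 CPM. It was called under all 12 alternative settings, with adjusted p-values up to 0.0266. At exon 2 of Esp18, a gene of the exocrine gland-secreted peptide family (chr17:39408089-39408094), the cluster had 0, 68.7, 0 and 30.8 CPM (limma adjusted p = 0.00935). The named Esp18 start had 0, 240, 0 and 104 CPM, so both places had tags only in libraries 2 and 4.

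Of the 9 clusters with this order 7 lay outside genes. On chromosome 19 (chr19:33788544-33788582) the values were 0, 114, 0 and 51.3 CPM, and on chromosome 6 (chr6:131782058-131782204) 0, 102, 0 and 36.9 CPM. A cluster on chromosome 10 (chr10:82569140-82569144) had 0.110, 55.2, 0 and 25.1 CPM, and another on chromosome 6 (chr6:59710620-59710804) 0, 56, 0.113 and 21 CPM. Libraries 1 and 3 were at or below the 3-tag floor at all 4. Their limma adjusted p-values were 0.0068, 0.00806, 0.0121 and 0.0123. One in an intron of Lipo3, a lipase-like gene (chr19:33626340-33626378), had 0, 16.3, 0 and 9.98 CPM (limma adjusted p = 0.0293).

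The clusters highest in libraries 1 and 2 included the one in the Gm41515 window (chr16:88981825-88981834), in a region of keratin-associated protein genes of the hair shaft. It had 220, 199, 39.5 and 20.8 CPM (limma adjusted p = 0.0107), and the nearest named cluster, of Krtap16-3, had 635, 600, 115 and 45 CPM. Their log2 ratio had an SD of 0.22 over the libraries. A cluster in an intron of Tgm3, the gene of a transglutaminase of hair and epidermis (chr2:130040413-130040501), had 27.3, 28.3, 3.29 and 0.502 CPM (limma adjusted p = 0.0196). The nearest named Tgm3 cluster had 96.3, 92.7, 51.9 and 34.7 CPM, in the same order. One on chromosome 10 (chr10:117268256-117268287), 13873 bp from a start of the lysozyme gene Lyz2, had 72.4, 70.1, 18.9 and 4.63 CPM (limma adjusted p = 0.0126). The named Lyz2 cluster, a macrophage marker, had 38.3, 34.3, 41.9 and 39.6 CPM and did not show that order. The cluster in the Gm36926 window had 23.1, 21.7, 5.22 and 1.17 CPM (limma adjusted p = 0.0336).

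At chr6:3200991-3201072, outside genes, a cluster had 283, 332, 19.7 and 221 CPM (limma adjusted p = 0.00854). Libraries 1 and 2 were again highest, but library 4 was close to them and only library 3 was low. Without library 3 the limma adjusted p was 0.32, the highest of its 12 alternatives. The remaining called cluster, antisense to Jarid2 (chr13:44870047-44870051), had 0, 20.4, 7.2 and 0.892 CPM and followed neither order (limma adjusted p = 0.0354). The cluster in the Mir1a-1hg window, a host gene of the muscle microRNA Mir1a-1, had 9.96, 7.70, 11.9 and 18.8 CPM and was not called. Library 4 was highest and library 2 lowest there, as in the skeletal muscle marker sums.

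**Figure D5:**
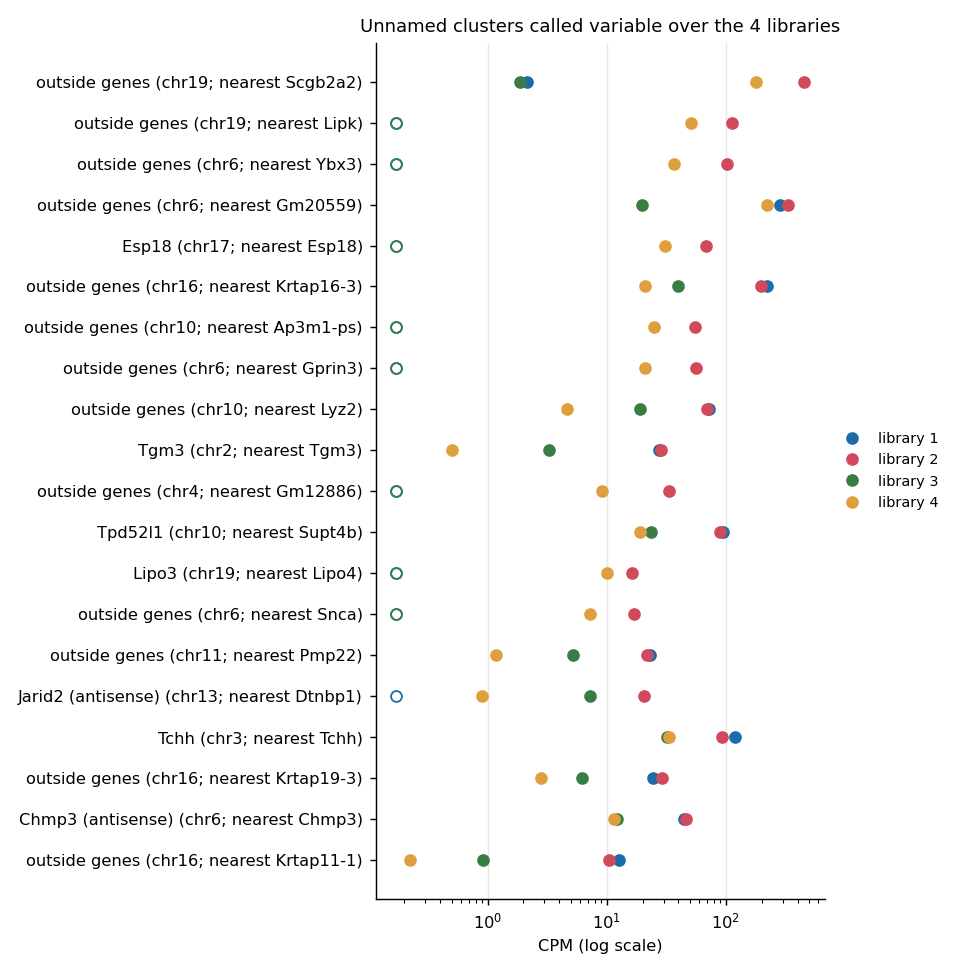
CPM (log scale) of the 20 unnamed clusters whose spread over the 4 libraries was called, 1 row per cluster with the gene it overlaps, its chromosome and the nearest named gene, in order of the test statistic. Open points, drawn at 0.17 CPM, stand for lower values, where libraries 1 and 3 often coincide; libraries 2 and 4 lead at 9 clusters and libraries 1 and 2 at 10.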

How the data were processed

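CAGE tags of 4 libraries of 1 group were analysed. Per the submitters' processing notes BWA and HISAT2 were used with the mm9 build; no source used here says how clusters were formed. The deposited values are CPM, from which whole tags were recovered (100% of values, tolerance 0.02 tags). Totals over the 69391 entries were 18179860, 18823630, 17630119 and 17939565 tags; 2072 entries repeat a cluster for another gene and were counted once. Intervals and floors (3 tags) cover counting error only.

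Coordinates fitted GRCm38, not mm9 (92.2% of named clusters lay within 500 bp of a GENCODE M21 start on their strand), so positions were placed with GENCODE M21. Edges at exon boundaries showed that deposited starts count from 0 (modal offset -3 on the + and -2 on the - strand), so 1 was added. No genome sequence was used.

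Spread was tested with limma 3.58.1 (R 4.3.3) on log2(CPM + 1) after TMM scaling by edgeR 4.0.16, for clusters of at least 1 CPM. An upper-tail F test set the variance over libraries against a robust prior trended on level, Benjamini-Hochberg adjusted over all clusters. The robust fit gave outlying clusters fewer prior degrees of freedom, down to 0.132, which would make their p-values larger. The common value of 4.38 was used for every cluster in their place. This test with the common value gave all limma p-values here. Checked on simulated data, it recovered 0% of clusters changed 2-fold in 1 library, 88% at 4-fold and 100% at 8-fold, with 24 false among 168 calls. A change shared by libraries 2 and 4, or by libraries 1 and 2, as in most called members, was not simulated. Alternatives included DESeq2 1.42.0 size factors and edgeR on whole tags.

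Text names the 10 highest members, 10 called members of largest F, 5 of smallest CV, the 3 highest of each class and those nearest the limit. One member this rule names is not reported here. The rule, members and lists were chosen with earlier results of these data known; the exon boundary class and window, loci, orientation examples and further boundary genes were chosen after the values were seen.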

Additional observations from a re-analysis of the deposited data

Results flagged for a closer look

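Of 61 groups of 4 values examined (members named by the rule, summed levels of classes and marker lists, and the share of tags), 3 had a library far from the others, with a gap to the nearest other value of 0.876 to 0.953 of the range; chance alone flags about 5% of groups. The cluster in an intron of Cmss1 had 9235 CPM in library 1 against 7399 to 7623 CPM in the others. The summed level of intronic clusters, which contains it, was 20971 CPM in library 1 against 17326 to 17779 CPM. The cluster at exon 2 of 2310046K23Rik had 783 CPM in library 3 against 482 to 496 CPM in the others.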

How the results depend on the processing

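The number of members called for spread, 20, was 19 to 22 with other pseudocounts, no scaling, DESeq2 size factors or edgeR's quasi-likelihood test. It was 129 with no filter on level (1.8% of all clusters called), 1 with a filter at 5 CPM, 1 with a prior that was not robust, and 2 to 23 when each library was left out (12 without library 2, 2 without library 4). The cause of these shifts was not tested. The prior that was not robust was applied to the same 25530 clusters, while the filter at 5 CPM left 14975 clusters and no filter 66269. The number of members, 919, was 2039 at 2 CPM, 518 at 10 CPM and 907 to 935 without 1 library. The share of tags, 9.11%, was 8.02% without exon boundaries. The median distance, 6028 bp, was 7475 bp to named clusters of at least 1 CPM, 9953 bp on the same strand, 6094 bp between centres and 11744 bp without exon boundaries. Members near a named cluster, 126, numbered 239 within 2 kb. The median width, 43 bases, was 52 with neighbours within 100 bp joined and 100 without exon boundaries. Exon boundary members, 371, numbered 357 and 376 with a narrower and a wider window; these windows and the settings without exon boundaries were added after seeing the data. There were no members on chromosome M or unplaced contigs to leave out. No paired analysis was possible because the 4 libraries form 1 group, and what their codes share is not explained. Depth limits members near 5 CPM to about 360 tags over the 4 libraries.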
